A study of Homo sapiens with 12 samples.

Results

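The genes described are the AP-1 and ATF transcription factors *FOS*, *FOSB*, *FOSL1*, *FOSL2*, *JUN*, *JUNB*, *JUND*, *ATF3*, *BATF* and *JDP2*. They were picked by symbol as a family of factors, with no threshold on their counts, but with earlier results of these data known. All 10 were found, among 58288 genes in the count table, and all 10 passed the filter on low counts in both cell types. RNA was sequenced from HL-60/S4, an established human myeloid leukemia cell line that grows in suspension as promyelocytes and takes a granulocytic form with all-trans retinoic acid (ATRA). Promyelocytes were undifferentiated cells, and granulocytes had received 1 µM ATRA for 4 days. Both were treated with 16 ng/mL TNF-α, or with the same volume of water as vehicle, for 2 h in growth medium with added calcium. Cells of all groups were at passage 8. Each of the 4 groups held 3 libraries, each from its own flask of the one cell line, so p-values measure the spread between flasks. Promyelocytes and granulocytes were treated in independent experiments, so cell type and experiment cannot be told apart, in levels, which are only set side by side, or in the difference between the responses to TNF-α.

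AP-1 is a family of dimers built from basic leucine zipper proteins. FOS proteins need a JUN partner to bind DNA, whereas JUN proteins also pair with each other, and ATF3, BATF and JDP2 join the same network of dimers, often as repressors or modifiers. The classical AP-1 site reads TGACTCA, and dimers that hold ATF members favour the longer cAMP response element TGACGTCA. TNF-α is known to reach AP-1 through the MAP kinases JNK, p38 and ERK, which phosphorylate JUN and the ternary complex factors at the FOS promoter, and several FOS and JUN genes are immediate early genes whose transcripts rise within minutes and can be gone again within hours. In myeloid cells AP-1 acts beside NF-κB in the transcription of cytokine, protease and adhesion genes.

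The 12 libraries held 22829189 to 31895061 read pairs assigned to genes. Replicate libraries differed by more than sampling noise in every pair, with a chi-square of 3.59 to 14.1 times its degrees of freedom, so no library was counted as a copy of another. The labelled cell types were checked against marker genes. *MPO*, the peroxidase of promyelocyte granules, had 137814 to 207693 counts per promyelocyte library and 42787 to 63144 per granulocyte library, while *ELANE*, a granule protease, had 28 to 58 counts in promyelocytes and 0 to 3 in granulocytes. *NCF1*, a subunit of the NADPH oxidase of mature granulocytes, had 275 to 798 counts in promyelocytes and 30410 to 54575 in granulocytes. Of 5 macrophage and monocyte markers, *MARCO* was at 0 in every library and *CD14*, *CD163* and *MRC1* had at most 12 counts. *CSF1R*, a receptor of monocytes and their precursors, had 1327 to 1477 counts in granulocytes with vehicle and fell with TNF-α (log2 fold change -0.64, edgeR adjusted p = 3.02e-11). The summed level of the 5 markers was 9.59 to 10.0 CPM per kilobase with vehicle and 5.93 to 6.70 with TNF-α in granulocytes, and 0.799 to 1.01 against 0.679 to 0.775 in promyelocytes. With TNF-α, 3 of 5 promyelocyte markers fell in promyelocytes, where 6.65% of all genes tested were called lower and 8.15% higher. None of the 4 tested was called in granulocytes, where 24.8% of all genes were called lower and 24.4% higher. In promyelocytes, 2 granulocyte markers (*CYBB* and *NCF1*) rose, by 0.96 and 1.25 on the log2 scale, and 1 fell, and in granulocytes 2 of the 6 rose and 2 fell. Their summed level was 32.4 to 60.9 CPM per kilobase in the promyelocyte libraries and 921 to 1193 in those of granulocytes. Of 6 lymphoid markers *MS4A1* was at 0 in every library, while *NKG7* had 201 to 325 counts and *CD79A* 83 to 285. The summed level of the 6 was 12.6 to 15.5 CPM per kilobase in the promyelocyte libraries and 15.3 to 18.2 in those of granulocytes. With TNF-α 1 of them, *NKG7*, rose, in granulocytes. The part of these markers in the results below was not tested. In bulk RNA, fewer cells of a type and less RNA per cell cannot be told apart.

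Normalized counts are given below as CPM, counts scaled to library size with TMM factors from the libraries of that cell type, for comparing TNF-α with vehicle. Changes were tested with edgeR (quasi-likelihood F test), and a change was called at an adjusted p under 0.05, by Benjamini-Hochberg over the 16250 genes tested in promyelocytes or the 16944 tested in granulocytes. In promyelocytes 5 of the 10 AP-1 and ATF genes were called, against 14.8% of all genes tested. *JUN*, *JUNB* and *JUND* rose (8.15% of all genes were called higher) and *FOSL2* and *JDP2* fell (6.65% were called lower). In granulocytes 7 of the 10 were called, against 49.2% of all genes. *JUN*, *JUNB*, *JUND*, *FOSL1*, *ATF3* and *JDP2* rose (24.4% of all genes were called higher) and *BATF* fell (24.8% were called lower). The median log2 fold change over the 10 genes was -0.10 in promyelocytes and 1.14 in granulocytes, beside -0.0094 and -0.0047 over all genes tested. Because the 10 genes were chosen with earlier results of these data known, these counts and medians do not test the family as a set. In the plot of CPM by library, the 3 *JUN* genes stood higher with TNF-α on both sides, while the panels of *FOSL2* and *JDP2* differ in shape between the cell types.

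**Figure D1:**
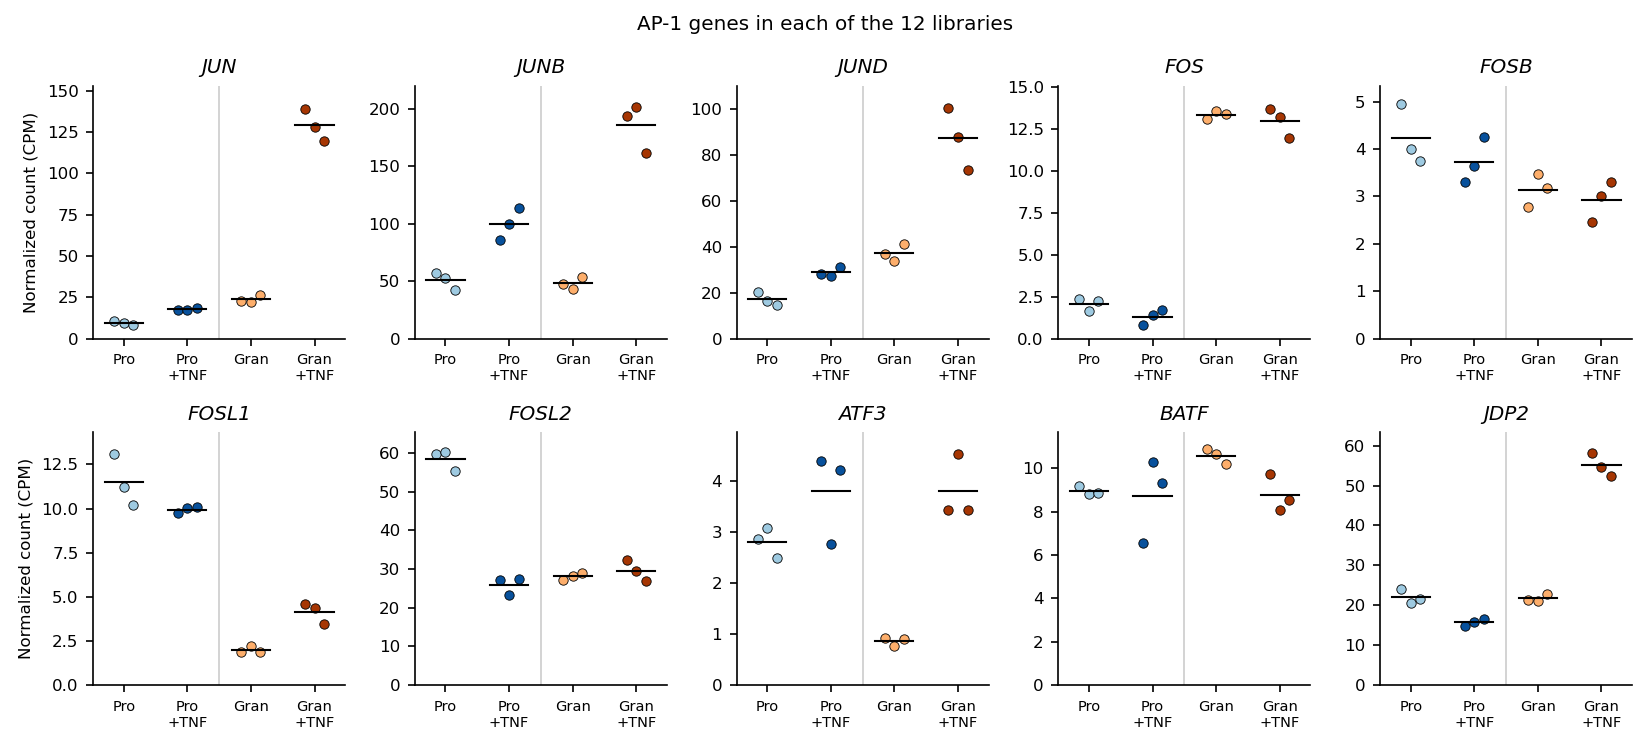
Normalized count (CPM, linear axis from 0) of each AP-1 gene in each of the 12 libraries. Points are single libraries and horizontal lines the means of 3, for promyelocytes (Pro) and granulocytes (Gran) with vehicle or TNF-α (+TNF), and TMM scaling was done separately on either side of the vertical line. *JUN* stood at 120 to 139 CPM in the 3 granulocyte libraries with TNF-α, above all 9 others.

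*JUN*, *JUNB* and *JUND* encode the JUN proteins, which can bind DNA without a FOS partner. *JUN* is the member most directly tied to JNK, *JUNB* an inducible member that often restrains *JUN*, and *JUND* a broadly expressed member. Each is 1 exon with no intron in the annotation used for counting. *JUN* lies on the minus strand of chromosome 1 (58780788 to 58784327, hg38), *JUNB* on the plus strand of chromosome 19 (12791496 to 12793315) and *JUND* on the minus strand of chromosome 19 (18279760 to 18281622). Bases upstream of the RefSeq start of each gene (GRCh38.p14) are shown, because the 3 genes rose in both cell types. Their upstream sequences differ in AP-1 and cAMP-response-element-like letters. For *JUN* only the 30 bases around its match are shown. They lie inside the *JUN* exon used for counting, which begins 280 bases upstream of the RefSeq start. Capitals mark matches to TGANTCA, TGANNTCA or TGACGT on either strand, and *JUNB* had none in its 250 bases.
JUN, chr1:58784096-58784125, minus strand: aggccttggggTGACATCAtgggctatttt
JUNB, chr19:12791236-12791485, plus strand: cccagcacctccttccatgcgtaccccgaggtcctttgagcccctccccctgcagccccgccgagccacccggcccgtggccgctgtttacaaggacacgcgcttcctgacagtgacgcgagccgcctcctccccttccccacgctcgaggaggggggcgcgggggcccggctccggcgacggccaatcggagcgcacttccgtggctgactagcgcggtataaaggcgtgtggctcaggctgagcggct
JUND, chr19:18281623-18281872, minus strand: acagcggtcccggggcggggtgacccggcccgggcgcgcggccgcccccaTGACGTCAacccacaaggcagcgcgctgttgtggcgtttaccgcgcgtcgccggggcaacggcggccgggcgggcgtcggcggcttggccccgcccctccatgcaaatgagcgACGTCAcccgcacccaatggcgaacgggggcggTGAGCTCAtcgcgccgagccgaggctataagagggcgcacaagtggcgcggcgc

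In vehicle-treated promyelocytes *JUN* stood at 10.7, 9.53 and 8.22 CPM, and with TNF-α at 17.2, 17 and 18.7 CPM. Every library with TNF-α lay above every vehicle library. *JUN* rose 1.86-fold (log2 fold change 0.89, standard error 0.104, edgeR adjusted p = 2.5e-06). In granulocytes *JUN* stood at 22.8, 21.9 and 26.3 CPM with vehicle and at 139, 128 and 119.9 CPM with TNF-α. The groups were far apart, and *JUN* rose 5.44-fold (log2 fold change 2.44, standard error 0.0648, edgeR adjusted p = 5.5e-28). By log2 fold change *JUN* was 250th of the 16944 genes tested in granulocytes and 443rd of 16250 in promyelocytes.

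*JUNB* stood at 57.1, 52.9 and 41.9 CPM in promyelocytes with vehicle and at 85.7, 99.6 and 114 CPM with TNF-α. In granulocytes it stood at 47.9, 43.5 and 53.2 CPM with vehicle and at 194, 201 and 162 CPM with TNF-α. Neither pair of groups overlapped. *JUNB* rose 1.97-fold in promyelocytes (log2 fold change 0.98, standard error 0.0995, edgeR adjusted p = 3.97e-07) and 3.85-fold in granulocytes (log2 fold change 1.95, standard error 0.0670, edgeR adjusted p = 2.71e-24). The *JUNB* exon shares 259 bases with the opposite-strand gene *HOOK2*, and counting used strand.

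*JUND* stood at 20.2, 16.4 and 14.9 CPM in promyelocytes with vehicle and at 28.0, 27.4 and 31.4 CPM with TNF-α. In granulocytes its values were 37.1, 33.7 and 41.3 CPM with vehicle and 101, 87.8 and 73.7 CPM with TNF-α. The groups did not overlap in either cell type. *JUND* rose 1.68-fold in promyelocytes (log2 fold change 0.75, standard error 0.0992, edgeR adjusted p = 1.35e-05) and 2.34-fold in granulocytes (log2 fold change 1.23, standard error 0.0754, edgeR adjusted p = 1.66e-16). Its exon has a GC content of 69.7%, the highest of the 10 genes and above the median of 46.9% over all genes in the table. For all 3 *JUN* genes, both calls were kept when any one library was left out. Groups of 3 that did not overlap were found for 31.1% of all genes tested in promyelocytes and 55.2% in granulocytes.

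The FOS family did not move together. *FOS* and *FOSB* encode the proteins with a strong transactivation domain, and *FOSL1* (Fra-1) and *FOSL2* (Fra-2) the Fos-related antigens that lack it. *FOSL2* lies on chromosome 2 (28392448 to 28417312, plus strand), with 7 blocks of exon. In promyelocytes it stood at 59.6, 60.3 and 55.4 CPM with vehicle and at 27.2, 23.3 and 27.3 CPM with TNF-α. All 3 libraries with TNF-α lay below all 3 with vehicle, and *FOSL2* fell 2.25-fold (log2 fold change -1.17, standard error 0.0726, edgeR adjusted p = 2.12e-10). Ranked from the lowest log2 fold change, it was 73rd of the 16250 genes tested. In granulocytes *FOSL2* stood at 27.02, 28.2 and 28.97 CPM with vehicle and at 32.3, 29.4 and 26.9 CPM with TNF-α. The groups overlapped there, and the log2 fold change was 0.07 (95% confidence interval -0.07 to 0.21, edgeR adjusted p = 0.408).

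*FOSL1* lies on chromosome 11 (65892049 to 65900573, minus strand). It stood at 13.1, 11.2 and 10.2 CPM in promyelocytes with vehicle and at 9.73, 10.0 and 10.1 CPM with TNF-α. The libraries with TNF-α all lay below those with vehicle, by a narrow gap, and the change did not pass the test (log2 fold change -0.21, 95% confidence interval -0.44 to 0.01, edgeR adjusted p = 0.22). In granulocytes *FOSL1* was low, with 49 to 66 counts per library with vehicle and 76 to 122 with TNF-α. It rose there from 1.89, 2.20 and 1.89 CPM to 4.61, 4.36 and 3.43 CPM, by 2.07-fold (log2 fold change 1.05, standard error 0.185, edgeR adjusted p = 1.01e-05).

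*FOS*, the prototype immediate early gene, lies on chromosome 14 (75278774 to 75282230, plus strand) and had 21 to 73 counts in each promyelocyte library. Its values were 2.33, 1.65 and 2.26 CPM with vehicle and 0.798, 1.41 and 1.72 CPM with TNF-α. The groups overlapped, and the log2 fold change of -0.66 did not pass the test (95% confidence interval -1.22 to -0.10, edgeR adjusted p = 0.113). With all 12 libraries in 1 fit, *FOS* was called in promyelocytes (log2 fold change -0.68, edgeR adjusted p = 0.0241), the one of 6 settings to pass, with an adjusted p of up to 0.205 in the others. In granulocytes *FOS* had 265 to 406 counts per library and stood at 13.1, 13.6 and 13.4 CPM with vehicle and at 13.7, 13.2 and 11.96 CPM with TNF-α, with a log2 fold change of -0.04 (95% confidence interval -0.22 to 0.14, edgeR adjusted p = 0.743).

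*FOSB* lies on chromosome 19 (45467995 to 45475179, plus strand). It ranged from 3.75 to 4.95 CPM with vehicle and from 3.31 to 4.26 CPM with TNF-α in promyelocytes, and from 2.77 to 3.47 against 2.46 to 3.30 CPM in granulocytes. Both pairs of groups overlapped. The log2 fold change was -0.18 in promyelocytes (95% confidence interval -0.53 to 0.17, edgeR adjusted p = 0.547) and -0.11 in granulocytes (95% confidence interval -0.47 to 0.26, edgeR adjusted p = 0.657).

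*ATF3*, *BATF* and *JDP2* encode small dimer partners. *ATF3* is a stress-induced factor that as a homodimer represses transcription. It lies on chromosome 1 (212565334 to 212620777, plus strand) and was among the least abundant of the 10 genes, with 23 to 133 counts per library. In promyelocytes it stood at 2.88, 3.08 and 2.498 CPM with vehicle and at 4.41, 2.78 and 4.22 CPM with TNF-α. One library with TNF-α lay within the vehicle range, and the log2 fold change of 0.43 did not pass the test (standard error 0.192, edgeR adjusted p = 0.148). Without that library, promyelocyte TNF-α replicate 2, it was 0.62 and passed (edgeR adjusted p = 0.0442), while leaving out any of the 5 others gave adjusted p up to 0.396. In granulocytes *ATF3* rose from 0.924, 0.768 and 0.911 CPM to 3.44, 4.54 and 3.43 CPM, by 4.40-fold (log2 fold change 2.14, standard error 0.229, edgeR adjusted p = 5.27e-10).

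*JDP2*, the Jun dimerization protein, pairs with JUN proteins and represses transcription. It lies on chromosome 14 (75427716 to 75474111, plus strand). In promyelocytes it stood at 24.1, 20.7 and 21.5 CPM with vehicle and at 14.8, 15.8 and 16.5 CPM with TNF-α. In granulocytes it stood at 21.2, 21.2 and 22.8 CPM with vehicle and at 58.1, 54.8 and 52.4 CPM with TNF-α. The groups did not overlap in either cell type, and the direction was opposite. *JDP2* fell 1.41-fold in promyelocytes (log2 fold change -0.49, standard error 0.0872, edgeR adjusted p = 0.000391) and rose 2.54-fold in granulocytes (log2 fold change 1.34, standard error 0.0634, edgeR adjusted p = 5.48e-20). It was the only one of the 10 called in opposite directions, as were 184 of 15393 genes (1.20%), while *JUN*, *JUNB* and *JUND* were called in the same direction, as were 10.5% of the same 15393. *JDP2* shares 26 exon bases with *JDP2-AS1* on the opposite strand.

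*BATF* pairs with JUN proteins and acts at composite sites with IRF factors, chiefly in lymphoid cells. It lies on chromosome 14 (75522425 to 75547015, plus strand). In promyelocytes it stood at 9.17, 8.83 and 8.88 CPM with vehicle and at 6.58, 10.3 and 9.34 CPM with TNF-α, a range around the vehicle values (log2 fold change -0.03, 95% confidence interval -0.32 to 0.25, edgeR adjusted p = 0.908). In granulocytes it stood at 10.9, 10.7 and 10.2 CPM with vehicle and at 9.75, 8.08 and 8.53 CPM with TNF-α. *BATF* fell 1.21-fold there (log2 fold change -0.27, standard error 0.104, edgeR adjusted p = 0.0279). This call was lost in 4 of the 6 fits that left out a library (granulocyte vehicle replicate 1 or 2, TNF-α replicate 2 or 3, adjusted p up to 0.164), in DESeq2 (adjusted p = 0.117) and with all 12 libraries in 1 fit (adjusted p = 0.101). With the libraries' trends with GC content and length removed, the log2 fold change was -0.46.

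The responses of the 2 cell types were then compared directly, as the granulocyte minus the promyelocyte log2 fold change in a fit of all 12 libraries. This difference was called for 7 of the 10 genes, all with the higher value in granulocytes, against 24.0% of the 18124 genes tested (14.1% higher and 9.88% lower). Each response was measured within its own experiment, and a difference in treatment or handling between the experiments cannot be told apart from cell type here. By the paper's methods, undifferentiated cells were put into fresh medium at a higher density than differentiated cells, whose medium held ATRA. The part of cell density in the responses was not tested. Over all genes, 58.9% of the called differences were higher, and 48.4% with DESeq2's size factors, under which the same 7 genes were called. The largest difference was that of *JDP2* at 1.88 (standard error 0.108, edgeR adjusted p = 5.9e-13), followed by *ATF3* at 1.74 (standard error 0.300, adjusted p = 7.88e-05) and *JUN* at 1.59 (standard error 0.127, adjusted p = 3.04e-10). *JDP2* fell in promyelocytes and rose in granulocytes, *ATF3* was called in granulocytes alone, and *JUN* rose in both. *FOSL1* differed by 1.30 (95% confidence interval 0.89 to 1.71) and *FOSL2* by 1.28 (1.06 to 1.504), the first with a rise in granulocytes and the second with a fall in promyelocytes. *JUNB* differed by 1.01 (0.71 to 1.31).

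*JUND* differed by 0.51 (standard error 0.150, edgeR adjusted p = 0.0127). With the trends with GC content and gene length removed the difference was 0.05 (adjusted p = 0.822, the highest of 5 other settings, with 0.000475 the lowest), and it also missed the threshold without promyelocyte vehicle replicate 1 (0.36, adjusted p = 0.0775) or granulocyte vehicle replicate 2 (0.44, adjusted p = 0.0503). *FOS* differed by 0.65 and lay next to the threshold (95% confidence interval 0.15 to 1.15, edgeR adjusted p = 0.0505), and it passed in 3 of the 12 fits that left out a library: promyelocyte vehicle replicate 2, promyelocyte TNF-α replicate 3 or granulocyte TNF-α replicate 3. *FOSB* differed by 0.11 (-0.39 to 0.61) and *BATF* by -0.20 (-0.56 to 0.16), neither past the threshold. The plot of log2 fold changes sets these differences beside the responses they come from.

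**Figure D2:**
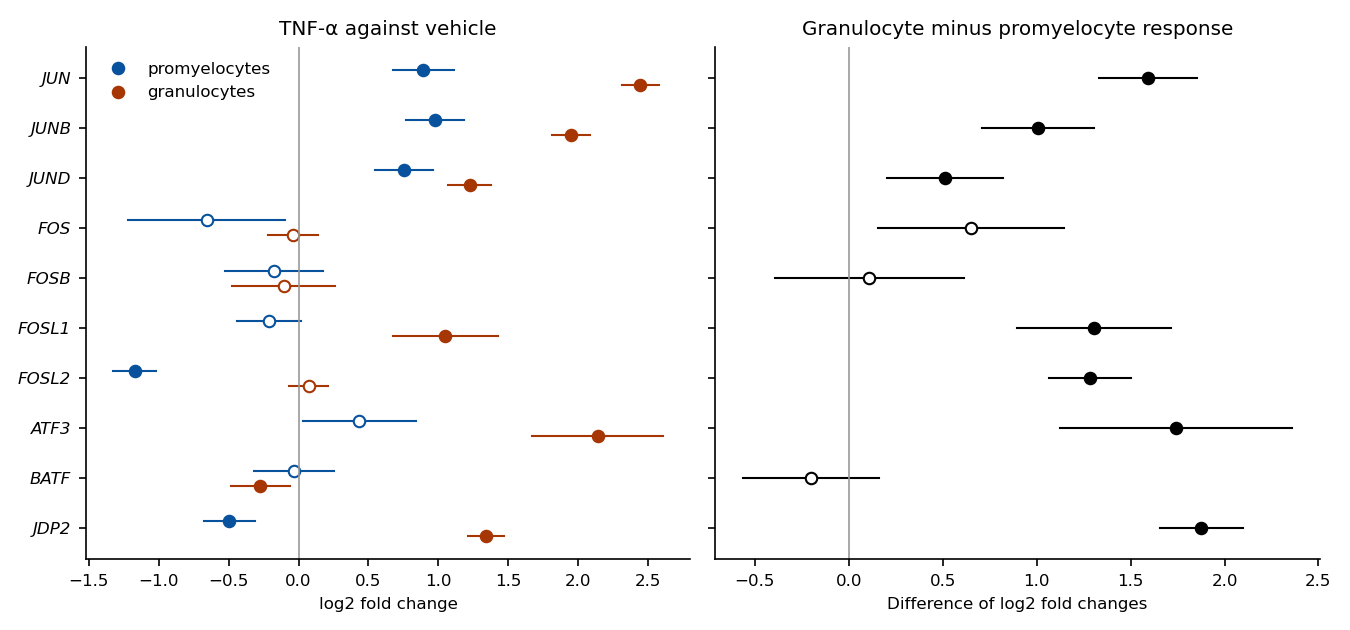
Left, log2 fold change of TNF-α against vehicle for each gene in promyelocytes (blue) and granulocytes (orange), and right, the difference between the responses. Bars are 95% confidence intervals, filled points passed the adjusted p threshold of 0.05 and open points did not. *JDP2* lies at -0.49 in promyelocytes and 1.34 in granulocytes, and *FOSL2* at -1.17 and 0.07.

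Levels were compared between genes as CPM per kilobase of exon, with TMM scaling over all 12 libraries, and are descriptive. *JUNB* was the most abundant of the 10 transcripts in every group, at 28.1 ± 4.69 CPM per kilobase in promyelocytes with vehicle, 54.3 ± 7.71 with TNF-α, 26.4 ± 2.69 in vehicle granulocytes and 102.5 ± 11.8 in those given TNF-α (SD over 3 libraries). In promyelocytes with vehicle the order below *JUNB* was *JUND* (9.29), *BATF* (9.21), *FOSL2* (8.23), *FOSL1* (6.15), *JDP2* (3.57) and *JUN* (2.71), then *FOSB* (0.769), *ATF3* (0.703) and *FOS* (0.647). The ranges of *JUND* and *BATF* overlapped, as did those of *FOSB* and *ATF3* and of *ATF3* and *FOS*. With TNF-α the order in promyelocytes was *JUNB*, *JUND* (15.4), *BATF* (8.84), *FOSL1* (5.22), *JUN* (4.94), *FOSL2* (3.59), *JDP2* (2.49), *ATF3* (0.933), *FOSB* (0.667) and *FOS* (0.400). Here *FOSL1* and *JUN* overlapped, and so did *ATF3* and *FOSB*.

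In granulocytes with vehicle no neighbours in the order overlapped: *JUNB* was followed by *JUND* (19.97), *BATF* (10.7), *JUN* (6.66), *FOS* (4.09), *FOSL2* (3.90), *JDP2* (3.47), *FOSL1* (1.05), *FOSB* (0.562) and *ATF3* (0.214). With TNF-α *JUND* (47.2) and *JUN* (36.7) overlapped in range, as did *BATF* (9.01) and *JDP2* (8.88), and *FOSL2* (4.15) and *FOS* (4.02), with *FOSL1* (2.20), *ATF3* (0.946) and *FOSB* (0.528) below them. *JUN* moved from the fourth to the third place, past *BATF*. *FOS* stood at 0.647 CPM per kilobase in promyelocytes and 4.09 in granulocytes with vehicle, and *FOSL1* at 6.15 and 1.05, values from separate experiments.

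Summed per length, the JUN family stood at 33.1 to 46.3 CPM per kilobase in promyelocytes with vehicle and at 66.3 to 84.0 with TNF-α, and at 47.8 to 58.5 and 163 to 202 in granulocytes. The FOS family stood at 14.5 to 17.3 CPM per kilobase in promyelocytes with vehicle and at 9.57 to 10.4 with TNF-α, and at 9.31 to 9.84 and 9.88 to 11.8 in granulocytes. In both cell types the summed *JUN* transcripts were above the summed *FOS* transcripts in every library. *JUNB* made up 70.0% ± 1.43 of the JUN family in promyelocytes with vehicle and 72.6% ± 2.0 with TNF-α, and 49.7% ± 0.192 and 55.0% ± 1.89 in granulocytes. The share of *JUN* itself was 6.77% ± 0.182 and 6.66% ± 0.538 in promyelocytes, and 12.6% ± 0.309 and 19.7% ± 1.10 in granulocytes (SD, n = 3). *FOSL2* made up 52.2% ± 2.498 of the FOS family in promyelocytes with vehicle and 36.3% ± 2.54 with TNF-α, whereas *FOSL1* made up 38.8% ± 1.98 and 52.9% ± 1.99. In granulocytes *FOS* held 42.6% ± 0.607 with vehicle and 36.9% ± 0.552 with TNF-α, and *FOSL1* 10.9% ± 0.767 and 20.1% ± 1.46. These shares are ratios, so a share can move because another member did, and they were not tested.

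**Figure D3:**
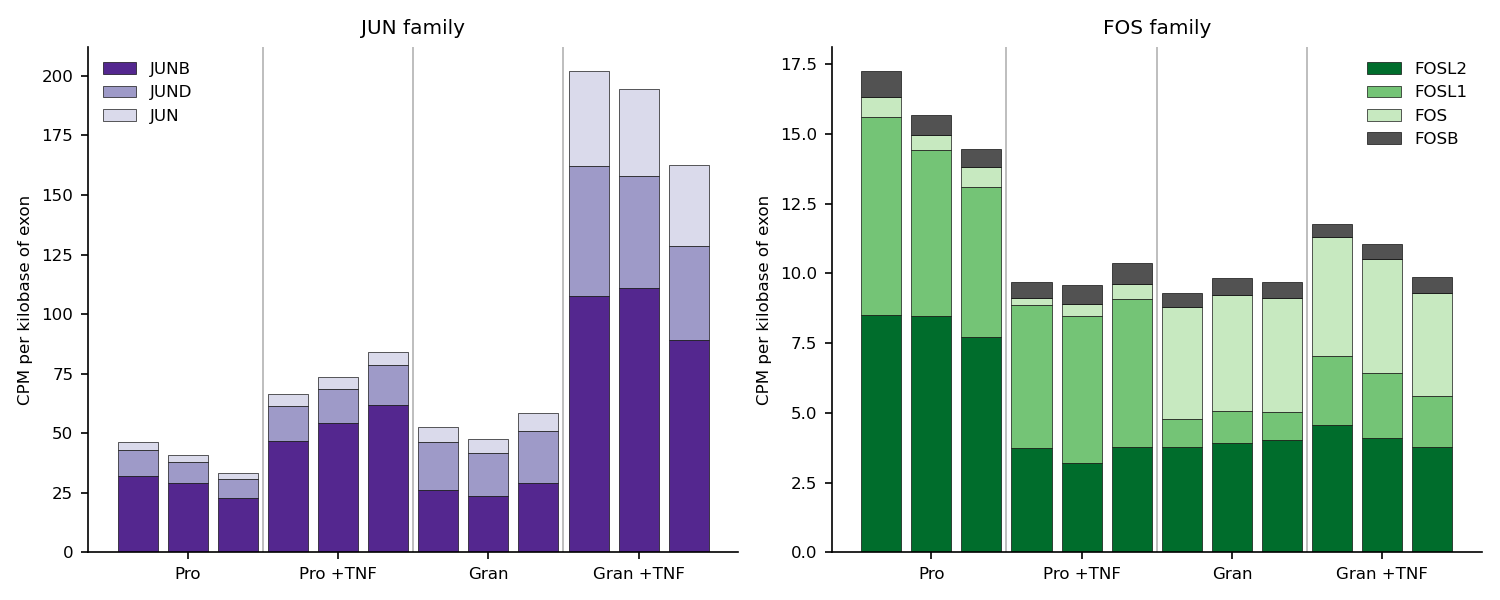
Levels of the JUN family (left) and the FOS family (right) in each library, as stacked CPM per kilobase of exon on linear axes from 0 with different scales, 3 bars for each group of promyelocytes (Pro) and granulocytes (Gran) with vehicle or TNF-α (+TNF). The summed JUN family reached 163 to 202 CPM per kilobase in granulocytes with TNF-α, and the FOS family was highest in promyelocytes with vehicle, at 14.5 to 17.3.

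Sequence features that the choice of genes did not use were described in RefSeq windows of 250 bases before to 50 bases after the start of transcription, which were at hand for 9 of the 10 genes (not *FOSL1*). TGANTCA, the AP-1 site, was found on either strand in 7.71% of all 35116 windows and in 1 of the 9 genes, *FOSL2*. TGANNTCA, which takes in TGACATCA and TGACGTCA, was found in 11.5% of windows and in *JUN*, *JUND* and *ATF3*. TGACGT, the core of the cAMP response element, was found in 7.98% of windows and in *FOS*, *FOSB*, *FOSL2*, *JUND* and *JDP2*. TGACGTCA counts under both of the last patterns, as it does in *JUND*. The NF-κB consensus was found in 11.3% of windows and in *JDP2*, and the CArG box, bound by *SRF*, in 1.29% and in none of the 9. Sites more than 250 bases before a start, at *FOS* or any other gene, lay outside the windows and were not searched. A gene with several starts was counted once if any of its windows held the letters, whereas the shares are of single windows. Stretches around matches to the first 3 patterns are given below, with the match in capitals. They are from the 3 other genes with a match whose responses differed between the cell types. The NF-κB matches of *JDP2* (positions -245 to -236 of start 2 and 20 to 30 of start 3) are not shown. The gene as annotated for counting begins 410 bases before the RefSeq start of *FOSL2* and 306 before start 2 of *JDP2*, so their stretches lie within it.
ATF3, chr1:212565273-212565302, plus strand: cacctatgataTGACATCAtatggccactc
FOSL2, chr2:28392850-28392879, plus strand: gtgccattgtagTGACTCAtctcgggcaga
FOSL2, chr2:28392780-28392809, plus strand: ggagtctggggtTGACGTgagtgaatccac
JDP2, chr14:75427913-75427942, plus strand: tccgtccccctcTGACGTctggagctggca

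The matched 8 letters TGACATCA were the same in *JUN* (positions -67 to -60) and at start site 1 of *ATF3* (positions -123 to -116). The window of *ATF3* start site 2 held no match. The share of all windows with these 8 letters was not counted, and a link to the responses was not tested. The TGACTCA of *FOSL2* lay at positions 5 to 11, just past its start. A match describes letters only, and binding was not measured. *FOS*, *JDP2* and *BATF* lie in this order on the plus strand of chromosome 14 within 268242 bases, with 145485 bases and 2 genes between *FOS* and *JDP2*, and 48313 bases and no annotated gene between *JDP2* and *BATF*. In granulocytes the log2 fold changes along this stretch were -0.04, 1.34 and -0.27, and in promyelocytes -0.66, -0.49 and -0.03, so the gene in the middle was the one that rose in granulocytes.

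Other factors of the ATF and CREB families bind the same elements. Of 12 listed, 11 were tested in promyelocytes, where 1 rose and none fell, and all 12 in granulocytes, where 6 rose and 2 fell (median log2 fold change 0.09 and 0.13). Over all genes, 8.15% were called higher and 6.65% lower in promyelocytes, and 24.4% and 24.8% in granulocytes. *CREB1*, which mediates transcription in response to cAMP, rose from 82.5, 84.1 and 84.7 to 136, 139 and 130.3 CPM in promyelocytes (log2 fold change 0.69, edgeR adjusted p = 1.67e-08) and from 125, 126 and 120.1 to 218, 223 and 232 CPM in granulocytes (log2 fold change 0.86, edgeR adjusted p = 1.39e-17). *ATF4* and *ATF5*, factors of the integrated stress response, rose in granulocytes by 0.64 and 1.01 on the log2 scale (edgeR adjusted p = 1.94e-12 and 1.7e-16), and in promyelocytes had log2 fold changes of 0.09 and 0.11 (adjusted p = 0.351 and 0.306). *BATF2*, a relative of *BATF*, fell in granulocytes from 40.7, 37.6 and 38.7 to 22.1, 22.6 and 23.2 CPM (log2 fold change -0.78, edgeR adjusted p = 8.67e-13). It had 2 to 5 counts in promyelocyte libraries and was not tested there. *BATF3*, another relative, went the other way in granulocytes, from a low mean of 0.515 to 1.97 CPM (log2 fold change 1.94, edgeR adjusted p = 1.77e-06). In promyelocytes the log2 fold change of *BATF3* was 0.34 and did not pass the test (edgeR adjusted p = 0.101).

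MAP kinases carry the signal to AP-1. Of 15 listed 14 were tested. Of these 1 rose and 1 fell in promyelocytes, and 4 rose and 5 fell in granulocytes (median log2 fold change 0.02 and -0.002), shares near those of all genes (8.15% higher and 6.65% lower in promyelocytes, 24.4% and 24.8% in granulocytes). *MAP3K8*, a kinase upstream of ERK, rose in granulocytes by 0.84 on the log2 scale (edgeR adjusted p = 3e-14), and its log2 fold change of 0.23 in promyelocytes did not pass the test (adjusted p = 0.0878). *MAPK14*, which encodes p38α, rose by 0.61 in granulocytes (edgeR adjusted p = 1.02e-13), beside 0.09 in promyelocytes (adjusted p = 0.314). *MAP2K3*, a kinase that activates p38, rose in both, by 0.44 in promyelocytes and 0.37 in granulocytes (edgeR adjusted p = 6.05e-05 and 2.97e-07). *MAP3K1*, a kinase upstream of JNK, fell in both, with log2 fold changes of -0.26 and -0.69 (edgeR adjusted p = 0.00783 and 7.51e-12). Transcript levels do not measure kinase activity.

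Listed next are factors that act at the *FOS* and *JUN* promoters. All 9 listed were tested, 1 rose and 3 fell in promyelocytes, and 4 rose and 4 fell in granulocytes (median log2 fold change -0.27 and 0.09). Calls over all genes were also nearly even in granulocytes, at 24.4% higher and 24.8% lower, and stood at 8.15% and 6.65% in promyelocytes. *ELK1*, a ternary complex factor activated by MAP kinases, rose by 0.25 on the log2 scale in promyelocytes and 0.63 in granulocytes (edgeR adjusted p = 0.0146 and 1.08e-12). *ELK3*, a ternary complex factor that can repress, stood at 59.3, 64.2 and 58.4 CPM in granulocytes with vehicle and at 22.5, 20.9 and 19.9 CPM with TNF-α, a log2 fold change of -1.52 (edgeR adjusted p = 1.82e-21), and it fell in promyelocytes with a log2 fold change of -0.47 (edgeR adjusted p = 2.48e-05). *SRF*, the partner of these factors, rose by 0.43 in granulocytes (edgeR adjusted p = 3.41e-08), with 0.02 in promyelocytes (adjusted p = 0.887). *MEF2A*, a factor at the *JUN* promoter, rose by 0.31 in granulocytes (edgeR adjusted p = 3.3e-06), with 0.13 in promyelocytes (adjusted p = 0.212). Its listed relatives *MEF2C* and *MEF2D* fell in granulocytes, with log2 fold changes of -1.23 and -0.28 (edgeR adjusted p = 4.53e-06 and 0.00081). In promyelocytes *MEF2D* fell (-0.38, edgeR adjusted p = 0.000272) and *MEF2C* did not pass the test (-1.20, adjusted p = 0.083).

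The listed genes known to carry AP-1 sites rose or did not pass the test. The list was chosen with earlier results of these data known, so its counts do not test AP-1 targets as a set. Of 16 listed, 5 of the 11 tested rose in promyelocytes and all 12 tested rose in granulocytes, with none falling in either (median log2 fold change 0.63 and 1.37, beside 8.15% and 24.4% of all genes called higher). *MMP1*, *MMP3*, *MMP13* and *IL6* were too low to be tested in either cell type. *CXCL8*, the neutrophil chemokine IL-8, stood at 19.3, 17.2 and 20.3 CPM in promyelocytes with vehicle and at 239, 232 and 217 CPM with TNF-α (log2 fold change 3.60, edgeR adjusted p = 2.68e-18). In granulocytes *CXCL8* went from 89.7, 85.6 and 90.5 to 2660, 2788 and 2588 CPM (log2 fold change 4.92, edgeR adjusted p = 2.94e-38). *CD44*, the hyaluronan receptor, rose by 0.63 and 2.71 on the log2 scale (edgeR adjusted p = 3.19e-07 and 3.84e-32) and *MMP9*, the gelatinase of neutrophil granules, by 2.59 and 3.57 (edgeR adjusted p = 1.67e-11 and 9.76e-23). *PLAUR*, the urokinase receptor, rose by 1.52 in granulocytes (edgeR adjusted p = 9.99e-23) and had a log2 fold change of -0.12 in promyelocytes (adjusted p = 0.564). The difference of the responses was called higher in granulocytes for 8 of the 12 tested, lower for 1 and not called for 3. Over all genes, 14.1% were called higher and 9.88% lower. The lower one was *CCL2*, which rose by 2.41 in promyelocytes and 1.12 in granulocytes (difference -1.25, edgeR adjusted p = 2.5e-12). Many of these genes also have sites for NF-κB, and which factor bound them was not measured.

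**Figure D4:**
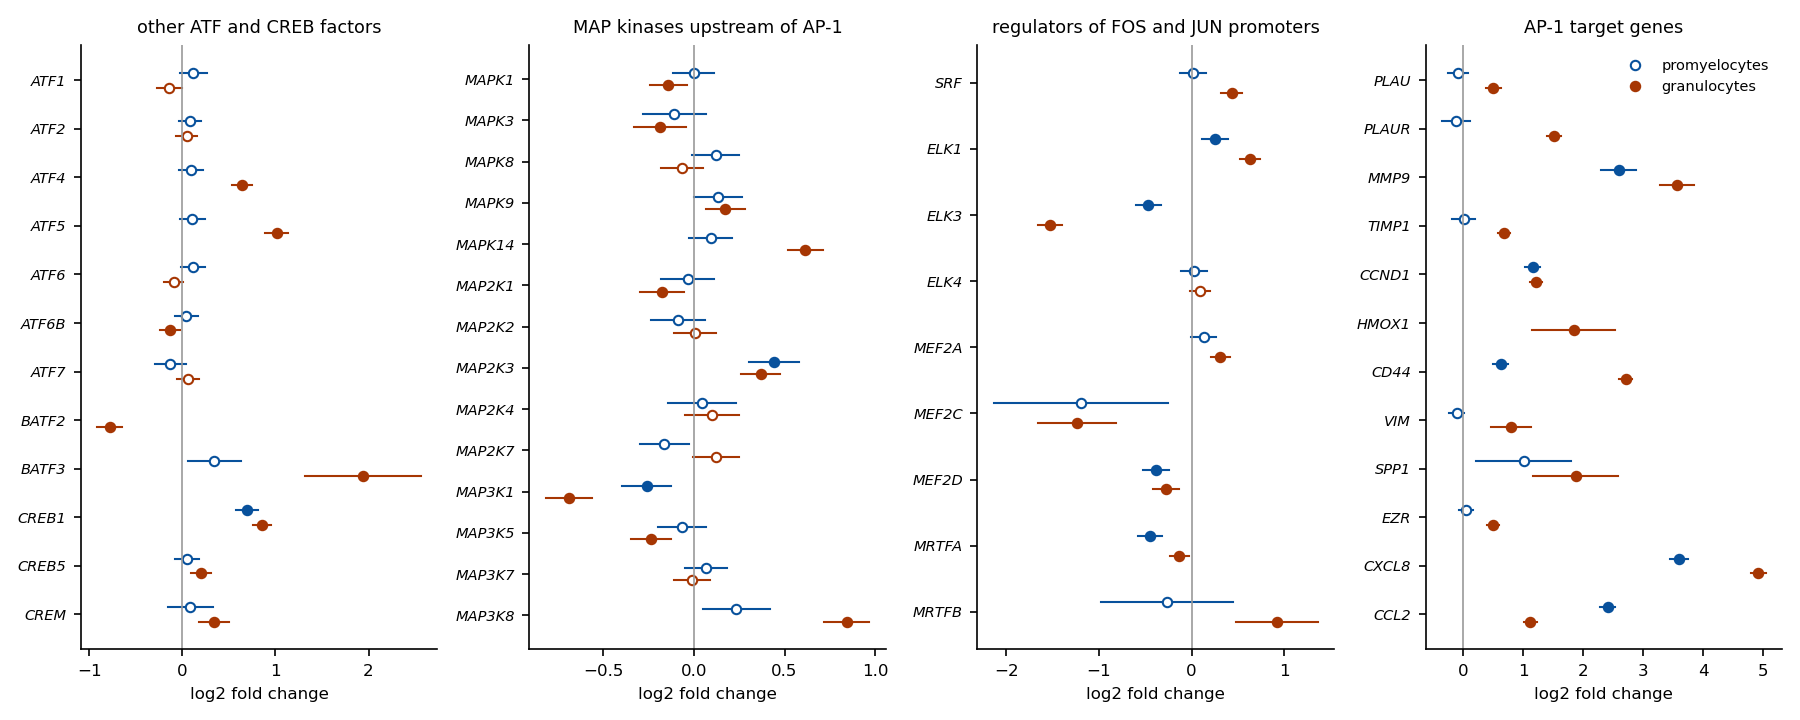
Log2 fold change of TNF-α against vehicle for the other ATF and CREB factors, the MAP kinases, the regulators of *FOS* and *JUN* promoters and the AP-1 target genes, in promyelocytes (blue) and granulocytes (orange). Bars are 95% confidence intervals, filled points passed the adjusted p threshold of 0.05, open points did not, and a missing point was below the filter on low counts. All 12 AP-1 target genes tested in granulocytes lie above 0, in a list chosen with earlier results of these data known.

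Among 13503 other genes tested in both cell types with a mean of at least 1 CPM, the pattern over the 12 libraries most like that of *JUN*, by Pearson's r of log2 CPM, was that of *PTTG1IP* (r = 0.996), followed by *ELK1* (0.996) and *MTF1* (0.994). Nearest to *JUNB* were *PHACTR1* (0.984), *CGN* (0.984) and *IL4I1* (0.983), and nearest to *ATF3* were *SLC20A1* (0.967), *ETFDH* (0.967) and *MFSD2A* (0.965). The 12 libraries form 4 groups, so these values mostly compare 4 group levels, and they were picked as the highest of many. The log2 fold changes of the 3 genes nearest to *JUN* were smaller than its own in both cell types: 0.51 and 1.01 for *PTTG1IP*, 0.25 and 0.63 for *ELK1*, and 0.77 and 1.82 for *MTF1*. Of those nearest to *JUNB*, *CGN* (2.43 and 4.91) and *IL4I1* (2.68 and 4.51) rose more than *JUNB*, and *PHACTR1* (0.71 and 1.64) less.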

How the data were processed

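Ribosomal RNA was removed from total RNA of 12 libraries (4 groups of 3) and paired ends were sequenced. Per the submitters' processing notes, the authors checked reads with FastQC 0.11.4, aligned them to hg38 with STAR 2.5.3a, counted read pairs with featureCounts 1.5.2 and tested them with DESeq2 1.16.1. The deposited values are raw counts per gene, and the file header gives GENCODE 27, primary alignments, both ends mapped and reverse-strand counting (option 2). No column of the table belonged to another series. FeatureCounts drops pairs that fall on several genes of 1 strand, and no exon of the 10 genes shared bases with another gene on its own strand.

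Symbols were taken from GENCODE 44 by identifier (57532 of 58288 matched). The 6 libraries of a cell type were fitted by themselves (edgeR 4.0.16, R 4.3.3, TMM, filterByExpr with a minimum count of 10 and a minimum total of 15, quasi-likelihood test, Benjamini-Hochberg adjustment, threshold 0.05). The difference of the responses was tested as an interaction with all 12 libraries together. A standard error is the size of the log2 fold change over the square root of its F, and intervals are 95%. With library totals of 22829189 to 31895061, precision is set by 3 libraries per group, for which an exact permutation test could not give a two-sided p below 0.1. The procedure was tested on simulated counts with the same spread set for every gene, a simpler setting than these libraries. That test does not show how often calls are right in these data. The members and the other gene lists were chosen with earlier results of these data known. Every member is named, and of each other list the 4 genes with the smallest adjusted p in either cell type, plus markers that define a cell type and, for 3 members, the 3 genes with the most similar pattern. Other genes were named as examples after their values were seen, and 1 marker gene is not reported here. Alternatives were DESeq2's size factors, no expression filter, DESeq2 1.42.0, a block for the replicate number, 1 fit of all 12 libraries, removal of trends with GC content and length, omission of each library in turn, and 0.01 as threshold. Motifs were searched on both strands of RefSeq promoter windows (GRCh38.p14), and plots were drawn with matplotlib 3.10.9.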

Additional observations from a re-analysis of the deposited data

Results flagged for a closer look

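Of the 10 genes, 7 were flagged because their response to TNF-α differed between the cell types by the test of the difference itself. The test was of the granulocyte minus promyelocyte log2 fold change (edgeR interaction, threshold 0.05 after adjustment over 18124 genes). Of all genes tested 24.0% were called, 14.1% higher in granulocytes and 9.88% lower. The 7 were JDP2 (1.88), ATF3 (1.74), JUN (1.59), FOSL1 (1.30), FOSL2 (1.28), JUNB (1.01) and JUND (0.51). The groups hold 3 libraries each, so single libraries were not tested as outliers. For JDP2, ATF3, JUN, FOSL1, FOSL2 and JUNB the difference passed the threshold in all 12 fits that left out a library, with a lowest value of 1.80, 1.56, 1.48, 1.19, 1.21 and 0.90. For the same genes in this order, the difference also passed in the 5 other settings, with a lowest value of 1.74, 1.66, 1.44, 1.10, 1.14 and 0.68. For JUND it passed in 10 of 12 and not after removal of the trends with GC content and gene length. JDP2 was the one gene of the 10 called in opposite directions in the 2 cell types. For FOSL1 the libraries with TNF-α also lay below those with vehicle in promyelocytes and above them in granulocytes, but the promyelocyte change was not called. Since the cell types were treated in separate experiments, cell type and experiment cannot be told apart as the source of these differences.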

How the results depend on the processing

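The numbers of members called (5 in promyelocytes, 7 in granulocytes, 7 for the difference) stayed within 1.5 times under every alternative run, at 5 to 6, 6 to 7 and 6 to 8 with a library left out. Of 410 fits of single members under an alternative, 389 kept their direction and side of the threshold, 6 gained a call, 9 lost one and 6 turned direction, none of these a called value. The turned values were, with trends of GC content and length removed, FOSL2 in granulocytes at -0.0035, BATF in promyelocytes at 0.0113 and the difference of FOSB at -0.0698. With a library left out, BATF in promyelocytes ranged from -0.1602 to 0.1315 (the only value above 0 without TNF-α replicate 1), FOS in granulocytes from -0.076 to 0.0195 (above 0 without TNF-α replicate 3) and the difference of FOSB from -0.0349 (without promyelocyte vehicle replicate 1) to 0.2191. With the same trends removed the difference of BATF was called (-0.45, adjusted p = 0.0387). The causes were not tested. Over all genes, 1438 were called in promyelocytes and 2843 for the difference at a threshold of 0.01, and 1598 in promyelocytes without vehicle replicate 2. Levels moved by more than 1 SD for 1 of 40 with DESeq2's size factors and 4 of 40 with library totals. Libraries with the same replicate number did not deviate together (residual correlations -0.198 to -0.008), so the numbers do not pair them. With a block for the replicate number, 5, 7 and 7 members were called and no member's call changed, while 1833, 7721 and 3349 of all genes were called. FOS and ATF3, with 21 to 133 counts in each promyelocyte library, have the widest intervals there, which limits what could be detected.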
